A study of Mus musculus with 18 samples.

Results

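The 9 genes described here, Bcl6, Gcsam, Mef2b, Il21, Pdcd1, Icos, Sh2d1a, Fas and Tox2, mark germinal centre B cells or follicular helper T cells. They were chosen by name and found by their Ensembl identifiers among the 49585 genes of a bulk RNA-seq count table. The table held 18 libraries from Kaede mice, which carry a photoconvertible fluorescent protein, in 6 groups of 3. Mice 6 to 10 weeks old received OT-II T cells polarized in vitro to a Th1 phenotype, were immunized with ovalbumin in complete Freund's adjuvant, and were then challenged with heat-aggregated ovalbumin in the footpad (joint inflammation) or in the ear pinna (skin inflammation). Tissue was photoconverted on day 3 and, in the inflamed groups, viable CD45+ Kaede red+ leukocytes were sorted 24 hours later. Cells still in the tissue are called nonmigrated and cells found in the draining lymph node are called migrated, which gave joint and skin groups of both kinds, each library from a pool of 8 to 18 mice. The other two groups, joint steady and skin steady, are labelled as leukocytes migrated from the joint or the ear to the node at steady state. The protocol names a PBS challenge as the control, the joint steady titles carry PBS and KG, and the skin steady titles carry Naive. The titles of the inflamed skin libraries, which were sorted as Kaede red+, carry KR. No label explains KG, and whether the steady-state cells were sorted as Kaede red+ is not given for these groups on their own. The labels do not say whether the transferred T cells carried Kaede, nor whether each steady-state library was a pool.

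A germinal centre is the part of a lymph node follicle where B cells divide, mutate their antibody genes and are selected with help from follicular helper T cells. BCL6, a transcriptional repressor, is needed by both cell types. MEF2B is a transcription factor of germinal centre B cells, GCSAM is a signalling adaptor named for its expression there, and FAS is a death receptor carried by germinal centre B cells and by many activated leukocytes. On the T cell side, IL-21 is the cytokine that drives B cell growth, ICOS is the costimulatory receptor, PD-1 (encoded by Pdcd1) is an inhibitory receptor, SAP (encoded by Sh2d1a) is the adaptor of the SLAM family receptors, and TOX2 is a nuclear HMG-box factor of follicular helper cells. Several of these genes are also used outside the follicle, PD-1 and ICOS by activated and regulatory T cells among them.

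Libraries held 19239531 to 43814403 assigned counts, with 35554698 or more in the inflamed joint groups, 22528895 or fewer in the inflamed skin groups and 28577566 to 42938378 at steady state, so 3 counts, taken as the floor, equal 0.0616 to 0.180 CPM (counts scaled to library size with TMM). The share of reads in no annotated gene was 0.293% to 0.562% in the inflamed joint libraries and 0.0925% to 0.135% in the inflamed skin libraries, so site and any technical difference between the 2 sets cannot be told apart. Ptprc, which encodes CD45, was at 1155 to 2530 CPM in all 18 libraries. The steady-state node libraries differed in makeup from the migrated ones. Their 6 B cell markers summed to 2679 to 4430 CPM, against 651 to 889 CPM in joint migrated and 108 to 191 CPM in skin migrated cells. Fscn1, 1 of 4 migratory dendritic cell markers, averaged 2.76 CPM in joint steady and 5.23 CPM in skin steady libraries, against 2418 and 3223 CPM in the corresponding migrated libraries. Ccl22 and Cacnb3 were low at steady state too, at 21 to 95 and 111 to 226 counts. Ccr7, the last of the 4, was not, at 14946 to 34422 counts. The B cell markers, Fscn1, Ccl22 and Cacnb3 go against the label of cells arriving from tissue, while Ccr7 does not. The steady-state groups are therefore described as node libraries. Among the inflamed groups, skin nonmigrated replicate 3 stood apart, with 271 CPM of T cell markers against 660 and 739 CPM in the other two. Fewer cells of a type and less RNA per cell cannot be told apart in any of these bulk libraries.

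**Figure D1:**
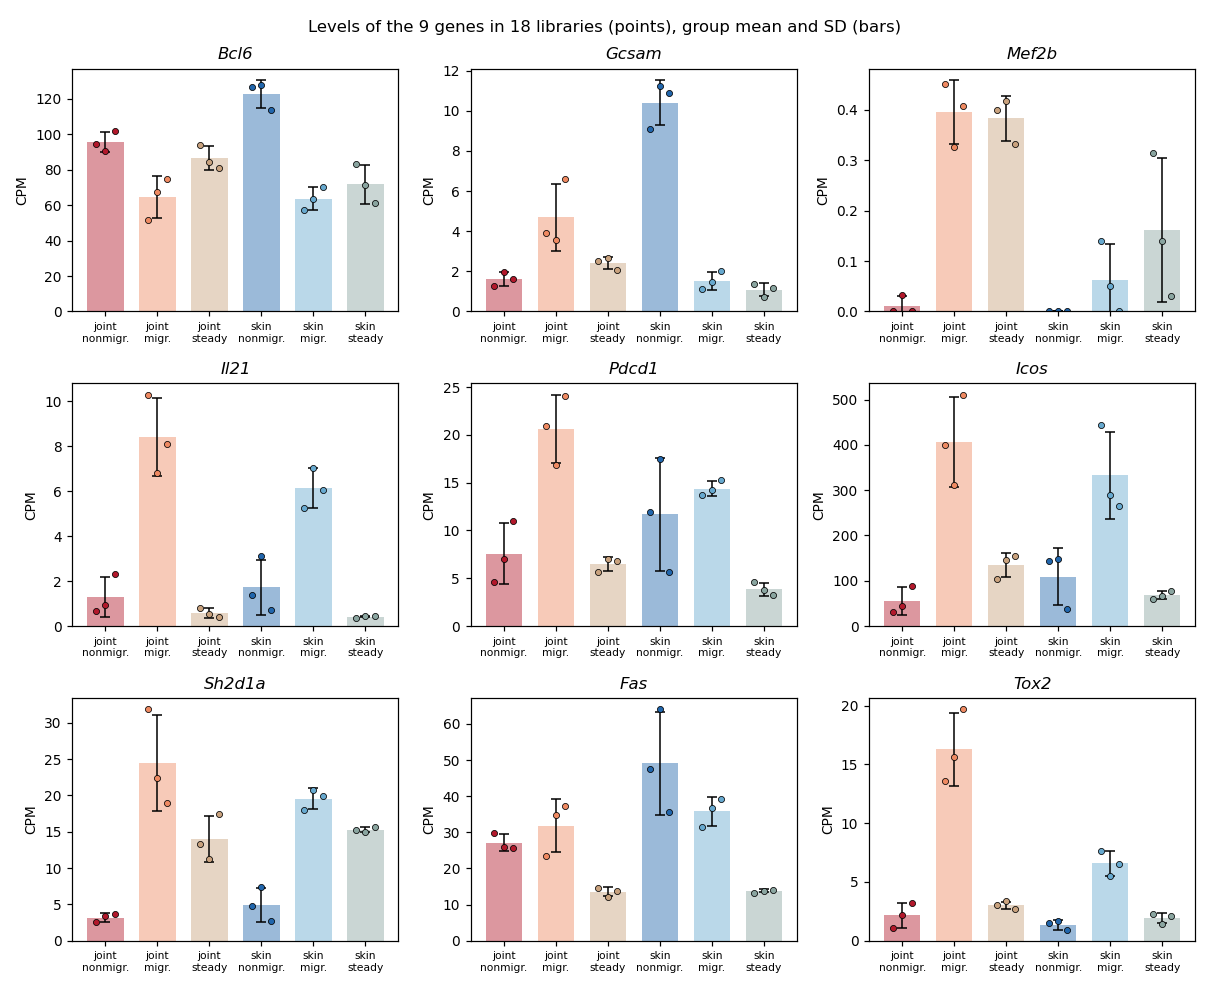
CPM of the 9 genes (vertical axes, linear from 0, 1 panel a gene) in the 18 libraries. Points are libraries, bars are means of 3 and whiskers are SDs. Il21, Icos, Sh2d1a and Tox2 were highest in the 2 migrated groups, whereas Gcsam was highest in skin nonmigrated cells, at 9.11 to 11.2 CPM.

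Per kilobase of exon, the 9 genes spanned a wide range of levels. In joint migrated cells mean RPKM (CPM per kilobase of exon) was 118.7 for Icos, 15.5 for Fas, 10.7 for Pdcd1, 9.66 for Bcl6, 4.80 for Tox2, 4.44 for Sh2d1a, 1.60 for Il21, 1.37 for Gcsam and 0.282 for Mef2b. Icos ranked first of the 9 by mean RPKM in all 6 groups. The least abundant of the 9 was Mef2b in the 4 inflamed groups and Il21 in both steady-state groups. All 9 passed the filter on low counts in both fits. Mef2b did so in the fit of the inflamed libraries through the joint migrated group alone, so it had to differ there and its values are given as a description. Sh2d1a shares 26.6% of its exon bases with Tenm1 on the opposite strand and Il21 shares 8.92% with Gm12534 on the opposite strand. HTSeq ran at default settings, which count by strand, but whether the library kit marked strand is not given in the sources used here. Tenm1 had at most 5 counts in a library, and Gm12534 had none.

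Il21 (chr3:37222759-37232636, mm10, minus strand) was expressed at a higher level in migrated cells than in any other group. Its level was 10.3, 6.82 and 8.10 CPM in joint migrated and 5.26, 7.04 and 6.07 CPM in skin migrated libraries. Nonmigrated libraries gave 0.656, 0.930 and 2.31 CPM in the joint and 1.38, 3.10 and 0.728 CPM in the skin. All 6 migrated libraries were above all 6 nonmigrated ones, and all 6 steady-state libraries, at 0.381 to 0.801 CPM, were below every migrated one. The 2 migrated groups overlapped each other.

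Icos (chr1:60977927-61000320, plus strand) encodes the costimulatory receptor that T cells raise on activation. It was at 398.6, 311.8 and 510.5 CPM in joint migrated and 442.8, 290.2 and 266.0 CPM in skin migrated libraries. The corresponding nonmigrated libraries gave 30.1, 45.4 and 89.1 CPM in the joint and 143.6, 147.2 and 36.7 CPM in the skin. Steady-state libraries lay at 103.9 to 153.6 CPM in the joint-draining and 60.0 to 78.5 CPM in the skin-draining nodes. The migrated libraries were above all others, and the low skin nonmigrated value came from replicate 3.

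Pdcd1 (chr1:94038305-94052553, minus strand) was at 20.9, 16.9 and 24.03 CPM in joint migrated and 13.7, 14.2 and 15.2 CPM in skin migrated libraries. Nonmigrated levels were 4.65, 7.04 and 11.03 CPM in the joint and 11.9, 17.5 and 5.66 CPM in the skin. In the joint the migrated libraries did not overlap the nonmigrated ones, whereas in the skin the nonmigrated libraries reached from below to above the migrated range. Steady-state libraries, at 3.21 to 7.02 CPM, were below all migrated ones.

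Sh2d1a (chrX:42502453-42529330, plus strand) was at 31.8, 22.4 and 19.0 CPM in joint migrated and 17.9, 20.8 and 19.9 CPM in skin migrated libraries. Both nonmigrated groups were low, at 2.52, 3.39 and 3.61 CPM in the joint and 4.80, 7.36 and 2.70 CPM in the skin. Unlike Il21, Sh2d1a stayed high in the steady-state nodes, at 11.2 to 17.5 CPM in joint steady and 15.0 to 15.6 CPM in skin steady libraries, all above every nonmigrated library.

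Tox2 (chr2:163203125-163324170, plus strand) was the follicular helper gene with the widest gap between the migrated groups. Its level was 13.6, 15.6 and 19.7 CPM in joint migrated and 7.68, 5.54 and 6.51 CPM in skin migrated libraries. It was at 1.07, 2.23 and 3.19 CPM in joint nonmigrated and 1.499, 1.69 and 0.883 CPM in skin nonmigrated cells. The migrated groups overlapped neither each other nor any other group, and steady-state levels were 1.44 to 3.34 CPM.

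Gcsam, Mef2b, Bcl6 and Fas behaved differently. Gcsam (chr16:45610380-45622867, plus strand) was at 9.11, 11.2 and 10.9 CPM in skin nonmigrated libraries, from 152, 192 and 209 counts. Joint migrated libraries came next at 3.92, 3.55 and 6.58 CPM, and joint steady ones followed at 2.51, 2.67 and 2.06 CPM. Joint nonmigrated (1.26, 1.96 and 1.62 CPM) and skin migrated (1.12, 1.45 and 1.99 CPM) libraries overlapped, as did skin migrated and skin steady (1.35, 0.718 and 1.19 CPM) libraries. Skin nonmigrated, joint migrated, joint steady and joint nonmigrated cells therefore followed in that order without overlap between neighbours, and the order of the rest was within their spread.

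Mef2b (chr8:70139711-70167488, plus strand) was rare. It had 22, 14 and 19 counts in joint migrated and 18, 17 and 15 counts in joint steady libraries, levels of 0.327 to 0.452 and 0.333 to 0.417 CPM. Skin steady libraries held 14, 6 and 1 counts, skin migrated 3, 1 and 0, joint nonmigrated 0, 1 and 0, and skin nonmigrated none, where 3 counts would be 0.156 to 0.180 CPM. Counts above the floor were seen in both joint node groups and in 2 skin steady libraries. Of its exon bases, 4.42% are shared with Borcs8 on the same strand.

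Bcl6 (chr16:23965052-23988852, minus strand) had group means of 63.7 to 122.6 CPM and was highest in the nonmigrated cells. It was at 126.5, 127.9 and 113.4 CPM in skin nonmigrated and 94.3, 90.6 and 102.1 CPM in joint nonmigrated libraries. Migrated libraries gave 51.9, 67.2 and 75.0 CPM in the joint and 57.1, 63.6 and 70.5 CPM in the skin. The nonmigrated groups lay above both migrated groups, and steady-state libraries, at 61.0 to 94.1 CPM, overlapped both sides. Bcl6 did not follow the B cell markers. Per 1000 CPM of these markers it averaged 19911 in skin and 864 in joint nonmigrated cells. The same ratio was 438 in skin migrated, 84.2 in joint migrated, 22.8 in skin steady and 20.8 in joint steady libraries.

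Fas (chr19:34290666-34327772, plus strand) separated inflamed from steady-state libraries. It was at 23.6 to 64.0 CPM in the 12 inflamed and 12.1 to 14.7 CPM in the 6 steady-state libraries. The highest values were in skin nonmigrated cells, at 47.6, 64.0 and 35.8 CPM. Per 1000 CPM of B cell markers, Fas averaged 8248 in skin and 253 in joint nonmigrated cells. The same ratio was 247 in skin migrated, 41.7 in joint migrated, 4.45 in skin steady and 3.25 in joint steady libraries. Which cells carried Fas was not tested.

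The promoters of 3 members are shown because Il21 and Pdcd1 were the pair of members with the most similar levels over the 18 libraries (Pearson r of log2(CPM + 1) = 0.917), whereas Gcsam followed neither closely (r = 0.209 with Il21 and 0.452 with Pdcd1). These r values describe libraries that share groups and carry no test. Sequences were taken from RefSeq (GRCm38.p6, the assembly named mm10), which gave 12 promoter windows for 7 of the 9 members, Icos and Sh2d1a having none in the table. Each line runs 5′ to 3′ along the gene's strand up to its first annotated base, and capitals mark GGAAAA or its reverse complement, the core bound by NFAT factors, which act downstream of the antigen receptor.
Il21, chr3:37232637-37232886, minus strand: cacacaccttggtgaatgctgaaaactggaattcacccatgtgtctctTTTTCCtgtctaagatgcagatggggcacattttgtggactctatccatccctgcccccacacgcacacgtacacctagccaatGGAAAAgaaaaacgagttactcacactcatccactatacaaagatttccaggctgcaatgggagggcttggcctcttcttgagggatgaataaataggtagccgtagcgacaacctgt
Pdcd1, chr1:94052554-94052803, minus strand: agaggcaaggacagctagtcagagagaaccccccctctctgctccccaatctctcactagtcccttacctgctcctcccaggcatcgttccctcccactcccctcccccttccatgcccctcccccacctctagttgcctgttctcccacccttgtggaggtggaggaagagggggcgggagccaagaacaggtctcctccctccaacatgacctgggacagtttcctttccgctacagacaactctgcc
Gcsam, chr16:45610190-45610379, plus strand: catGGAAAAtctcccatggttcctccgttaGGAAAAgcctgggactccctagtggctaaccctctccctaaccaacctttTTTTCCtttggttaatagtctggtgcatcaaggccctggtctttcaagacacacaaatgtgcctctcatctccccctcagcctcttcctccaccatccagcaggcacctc

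Of all 32851 windows of 250 bases before a RefSeq start, 20.4% held GGAAAA on either strand. The Il21 window held 2 matches, 202 and 118 bases before the start, the Gcsam window held 3, and the Pdcd1 window held none. Of the windows not printed, that before the downstream Bcl6 start held 2 matches and 2 of the 5 Tox2 windows held 1 each, the same site read from neighbouring starts. TGANTCA (AP-1), found in 6.75% of all windows, had 1 match among the members, in Fas. TTCNNNGAA, a palindrome bound by STAT factors and resembling the BCL6 site, was in 7.02% of all windows and in the Bcl6 windows (1 match before the upstream and 3 before the downstream start) and the Fas window (1 match). The Il21 and Pdcd1 windows thus did not share any of the 3 letter patterns, which says only that these letters are not in the Pdcd1 window.

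The first comparison asked how cells that left the inflamed joint differed from those that stayed. The follicular helper genes and Gcsam rose in joint migrated cells, with Bcl6 and Fas not passing the test. In edgeR's quasi-likelihood test with Benjamini-Hochberg adjustment over all 16777 genes (called "edgeR adjusted p" hereafter), 7 of the 9 were higher at an adjusted p under 0.05 and an absolute log2 fold change above 1, where 16.0% of all genes were called higher, 18.4% lower and 34.3% in either direction. One of the 7 is Mef2b, whose place among the tested genes rests on the group where it is high, which leaves 6 of the other 8. Sh2d1a rose by a log2 fold change of 2.95 ± 0.32 (SE, 3 against 3 libraries, edgeR adjusted p = 1.72e-05) and Tox2 by 2.92 ± 0.36 (edgeR adjusted p = 4.29e-05). Icos rose 7.43-fold (edgeR adjusted p = 6.23e-04) and Il21 6.46-fold (edgeR adjusted p = 9.50e-04). Gcsam rose 2.91-fold and Pdcd1 2.73-fold (edgeR adjusted p = 0.00103 and 0.00606). Mef2b, at the floor in joint nonmigrated cells, was at least 4.36-fold higher against 3 counts per library. Bcl6 was at 64.7 ± 11.8 against 95.7 ± 5.90 CPM (SD, n = 3 each), a log2 difference of -0.56 (edgeR adjusted p = 0.00405) that is under the fold threshold, and Fas differed by 0.23 (95% interval -0.24 to 0.70).

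T cell and B cell markers moved with these changes. All 6 T cell markers (Cd3e, Cd3d, Cd3g, Cd4, Cd8a and Cd5) were called higher in joint migrated cells, their sum rising from 138 to 286 CPM in nonmigrated to 1189 to 1588 CPM in migrated libraries, and none of the 6 was at 0 in either group. All 6 B cell markers were also called higher, from sums of 87.2 to 203 CPM to sums of 651 to 889 CPM. Relative to the T cell marker sum of the same library, Il21 was at 4.91 to 6.82 CPM per 1000 CPM of markers in joint migrated and 4.04 to 8.10 in joint nonmigrated cells. The same ratio overlapped between the 2 joint groups for Icos (224.5 to 429.6 against 197.2 to 311.7), Tox2 (8.56 to 16.6 against 7.76 to 11.2) and Sh2d1a (16.0 to 20.04 against 12.6 to 18.3). Pdcd1 went the other way, with 12.2 to 20.2 in joint migrated and 30.6 to 38.6 in joint nonmigrated libraries, which did not overlap. Gcsam per 1000 CPM of B cell markers was 4.41 to 7.99 in joint migrated and 7.99 to 21.8 in joint nonmigrated libraries (means of 5.95 and 14.7), so its level rose while this ratio was lower on average. Other markers moved as well. The 3 regulatory T cell markers (median log2 change 3.49), the 3 NK cell markers (1.49) and the 4 migratory dendritic cell markers (5.46) were all called higher in joint migrated cells. All 4 neutrophil markers (-8.15), all 4 stromal markers (-6.05) and 3 of 4 macrophage or monocyte markers (-6.16) were called lower. The part of these cell types in the changes of the members was not tested beyond the ratios.

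**Figure D2:**
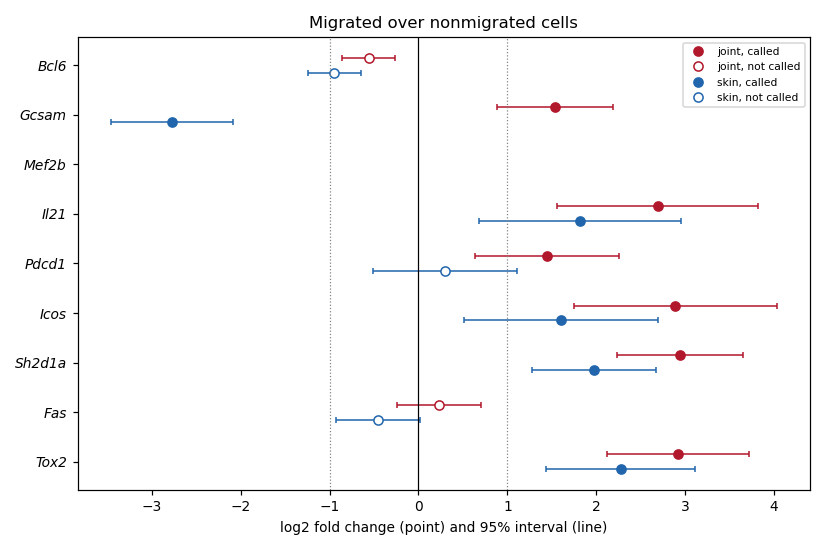
Log2 fold change of migrated over nonmigrated cells (horizontal axis) for the 9 genes, with 95% intervals, in the joint (red) and the skin (blue). Filled points passed the test and dotted lines mark a log2 change of 1 in either direction. Gcsam sits at 1.54 in the joint and at -2.77 in the skin, while Il21, Icos, Sh2d1a and Tox2 sit above 1 at both sites. Mef2b is not drawn because a group of each comparison was at the floor.

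Skin gave the same comparison at a second site. Of the 9 genes, 4 were higher in migrated cells and 1 was lower, where 15.7% of all genes were called higher, 19.7% lower and 35.4% in either direction. Tox2 rose 4.84-fold (log2 2.27 ± 0.38, edgeR adjusted p = 3.71e-04) and Sh2d1a 3.94-fold (edgeR adjusted p = 2.78e-04). Il21 rose 3.53-fold (edgeR adjusted p = 0.0105) and Icos 3.04-fold (edgeR adjusted p = 0.0163). The Icos call was lost without skin migrated replicate 1 (log2 1.35, edgeR adjusted p = 0.0569). Gcsam fell by 2.77 on the log2 scale (SE 0.32, edgeR adjusted p = 2.25e-05), being 6.84-fold higher in the cells that stayed. Bcl6 was at 63.7 ± 6.68 against 122.6 ± 7.97 CPM (SD, n = 3 each), a log2 difference of -0.95 (edgeR adjusted p = 1.26e-04) just under the fold threshold, which it passed without skin migrated replicate 3 (-1.04). For Pdcd1 the difference was 0.29 (95% interval -0.52 to 1.11) and for Fas it was -0.46 (-0.93 to 0.01). Mef2b was at the floor on both sides, and no fold is given.

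In the skin 4 of the 6 T cell markers were called higher in migrated cells, with sums of 1294 to 1375 CPM against 271 to 739 CPM. The B cell markers were all called higher, with sums of 108 to 191 CPM in migrated and 4.44 to 13.1 CPM in nonmigrated libraries. Gcsam was thus highest where the B cell markers were lowest. Per 1000 CPM of T cell markers, Sh2d1a (13.2 to 15.4 against 7.27 to 9.98) and Tox2 (4.03 to 5.64 against 2.27 to 3.26) were higher in skin migrated than in skin nonmigrated cells without overlap. Il21 (3.86 to 5.12 against 2.09 to 4.19) and Icos (205.6 to 325.2 against 135.7 to 217.5) overlapped. Pdcd1 per T cell marker was again lower in migrated cells, at 10.1 to 11.8 against 18.1 to 23.7, with no overlap. Per 1000 CPM of B cell markers, Gcsam reached 829 to 2054 in the skin cells that stayed, against 6.95 to 13.4 in those that had migrated. All 3 regulatory T cell markers (median log2 change 1.71), all 4 migratory dendritic cell markers (2.59) and all 3 cycling markers (1.85) were called higher in skin migrated cells. All 4 neutrophil markers (-7.77), 3 of 4 macrophage or monocyte markers (-4.55) and 3 of 4 stromal markers (-6.92) were called lower. The part of these cell types in the changes was not tested.

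**Figure D3:**
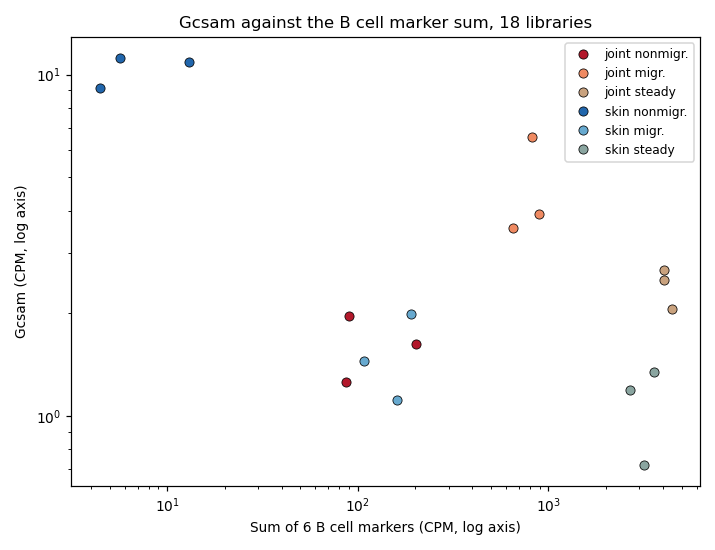
Gcsam (vertical axis, CPM, log scale) against the summed CPM of 6 B cell markers (horizontal axis, log scale) in the 18 libraries. The 3 skin nonmigrated libraries lie at the upper left, with the highest Gcsam and marker sums of 4.44 to 13.1 CPM, and the steady-state libraries lie at the lower right.

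The change with migration was then compared between sites, as an interaction of site and migration in the same fit. Gcsam was the only one of the 9 called. Its migration change differed by 4.31 ± 0.43 on the log2 scale (SE, edgeR adjusted p = 6.67e-04), being a rise in the joint and a fall in the skin, where 3.96% of all genes were called higher in this contrast, 2.17% lower and 6.13% in either direction. The differences for Pdcd1 (1.15, 95% interval 0.01 to 2.29), Sh2d1a (0.97, 0.02 to 1.92) and Fas (0.69, 0.02 to 1.36) had edgeR adjusted p of 0.187, 0.184 and 0.178. Without skin nonmigrated replicate 3, 4 genes were called, Pdcd1 (1.48), Icos (1.70) and Sh2d1a (1.27) joining Gcsam. In that fit 14.6% of all genes were called in either direction. In the main fit 2 of 6 T cell markers were called higher in this contrast (median 1.25). So were 1 of 3 regulatory T cell markers (1.94) and 3 of 4 migratory dendritic cell markers (2.87). Called lower were 2 of 6 B cell markers (-1.61) and 1 of 3 plasma cell markers (-0.02). The part of these cell types was not tested.

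Joint and skin were also compared within each compartment. Among nonmigrated cells, Gcsam was 6.46-fold lower in the joint than in the skin (log2 -2.69 ± 0.31, edgeR adjusted p = 2.19e-04) and was the one member called, where 8.86% of all genes were called lower, 5.45% higher and 14.3% in either direction. Fas was at 27.2 ± 2.33 CPM in joint nonmigrated and 49.1 ± 14.2 CPM in skin nonmigrated cells (SD, n = 3 each), a log2 difference of -0.86 (edgeR adjusted p = 0.0137) under the fold threshold. Without skin nonmigrated replicate 3, Fas (-1.04) and Icos (-1.41) were also called lower in the joint, and without joint nonmigrated replicate 1, Tox2 was called higher there (1.00). The nonmigrated groups also differed in makeup. All 6 B cell markers (median log2 difference 3.98) and 3 of 4 neutrophil markers (2.75) were called higher in the joint, while 5 of 6 T cell markers (-1.30), 2 of 3 regulatory T cell markers (-2.08) and all 4 migratory dendritic cell markers (-3.09) were called lower. All 3 cycling markers (1.27) and 1 of 3 plasma cell markers (-0.13) were also called higher in the joint, and 1 of 4 stromal markers (0.96) lower. The part of these cell types in these differences was not tested.

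Among migrated cells, Gcsam was 3.08-fold higher from the joint than from the skin (log2 1.62 ± 0.31, edgeR adjusted p = 0.0242), again the one member called, where 0.560% of all genes were called higher, 0.578% lower and 1.14% in either direction. That call was lost without joint migrated replicate 1 or 3 or skin migrated replicate 1 or 2, the log2 difference then being 1.33 to 1.75 (edgeR adjusted p = 0.0526 to 0.0935). Tox2 was 2.48-fold higher in joint migrated cells without passing the threshold (log2 1.31, 95% interval 0.56 to 2.06, edgeR adjusted p = 0.0836), and passed it in the DESeq2 Wald test (DESeq2 adjusted p = 0.00657). Mef2b had 55 counts in the 3 joint migrated and 4 in the 3 skin migrated libraries, a depth-scaled ratio of 6.38. It was not called, and since it passed the filter through the joint migrated group alone, this ratio is a description. For Il21 the difference was 0.46 (95% interval -0.58 to 1.503), for Icos 0.29 (-0.77 to 1.35), for Sh2d1a 0.32 (-0.33 to 0.97) and for Pdcd1 0.52 (-0.28 to 1.32). B cell markers differed with Gcsam here, all 6 being called higher in joint migrated cells, while T cell markers did not: of 6 T cell markers, edgeR called 0, the DESeq2 Wald test called 0, and 0 had an unadjusted p under 0.05. Gcsam per 1000 CPM of B cell markers was 4.41 to 7.99 in joint migrated and 6.95 to 13.4 in skin migrated libraries, so the order of the means (5.95 and 10.3) was opposite to that of the Gcsam level. The part of B cells in the difference was not tested beyond this ratio.

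Inflamed migrated cells were last set against the steady-state node libraries, in a fit of the 12 node libraries with 17107 genes. The same 5 members, Il21, Pdcd1, Icos, Fas and Tox2, were higher in inflamed migrated cells at both sites. At the joint 16.9% of all genes were called higher, 7.31% lower and 24.2% in either direction, and at the skin 21.5%, 15.0% and 36.5%. Il21 rose 14.8-fold at the joint (log2 3.88 ± 0.27, edgeR adjusted p = 9.53e-08) and 14.6-fold at the skin (log2 3.87 ± 0.28, edgeR adjusted p = 6.69e-08). Tox2 rose 5.53-fold at the joint and 3.47-fold at the skin (edgeR adjusted p = 5.14e-07 and 7.50e-06). Pdcd1 rose 3.24-fold and 3.79-fold, Icos 3.10-fold and 4.98-fold, and Fas 2.40-fold and 2.66-fold, in the same order (largest edgeR adjusted p = 4.42e-05). The 2 comparisons share no libraries.

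The remaining members did not pass. Gcsam was at 4.68 ± 1.65 CPM in joint migrated and 2.42 ± 0.32 CPM in joint steady libraries (SD, n = 3 each), a log2 difference of 0.99 (edgeR adjusted p = 0.0126) at the edge of the fold threshold, which it passed without joint migrated replicate 1 or 2 or joint steady replicate 1 or 2 (1.01 to 1.15), and at the skin it differed by 0.52 (95% interval -0.19 to 1.23). Sh2d1a differed by 0.84 (95% interval 0.43 to 1.24) at the joint, and by 1.04 without joint steady replicate 3, where it was called, and by 0.39 (-0.03 to 0.80) at the skin. Bcl6 differed by -0.39 (-0.69 to -0.09) at the joint and by -0.14 (-0.44 to 0.16) at the skin. Mef2b, with 55 against 50 counts, differed by 0.08 (-1.05 to 1.21) at the joint. At the skin it had 4 counts in migrated and 21 in steady libraries, a depth-scaled ratio of 2.79 in favour of steady (95% interval 0.942 to 11.2 for counting error alone).

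T cell marker sums overlapped at the joint, at 1189 to 1588 CPM in joint migrated and 1217 to 1454 CPM in joint steady libraries. At the skin they were lower in migrated cells without overlap, at 1294 to 1375 CPM against 1747 to 1775 CPM in skin steady libraries. Of the 6 markers edgeR and the DESeq2 Wald test called 0 at either site, and 3 at the joint and 2 at the skin had an unadjusted p under 0.05. Il21 per 1000 CPM of T cell markers was 0.275 to 0.642 in joint steady and 0.218 to 0.258 in skin steady libraries, below all inflamed libraries. The same ratio for Pdcd1 was 4.55 to 5.77 and 1.81 to 2.62, and for Icos 83.4 to 119.4 and 34.3 to 44.2, also below all inflamed libraries. For Tox2 the ratio was 1.86 to 2.74 in joint steady libraries, overlapping skin nonmigrated cells, and 0.821 to 1.28 in skin steady libraries. The 3 regulatory T cell markers Foxp3, Il2ra and Ikzf2 were called higher in migrated cells at both sites, their sums being 463 to 644 CPM in migrated and 89.7 to 141 CPM in steady libraries, as were the cycling markers Mki67, Top2a and Cdk1. Their part in the rise of the 5 members was not tested.

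**Figure D4:**
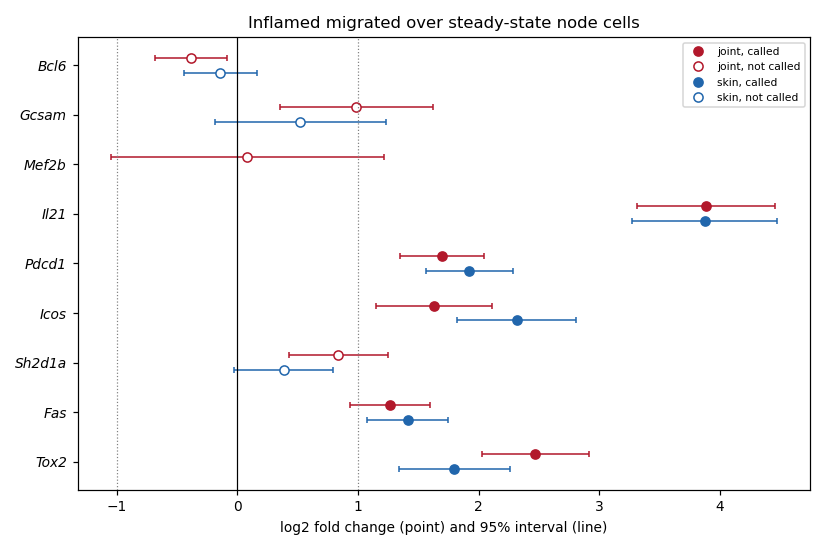
Log2 fold change of inflamed migrated over steady-state node libraries (horizontal axis) for the 9 genes, with 95% intervals, at the joint (red) and the skin (blue). Filled points passed the test and dotted lines mark a log2 change of 1 in either direction. Il21 lies farthest to the right, at 3.88 and 3.87. Mef2b is drawn for the joint alone, since skin migrated cells were at its floor.

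**Figure D5:**
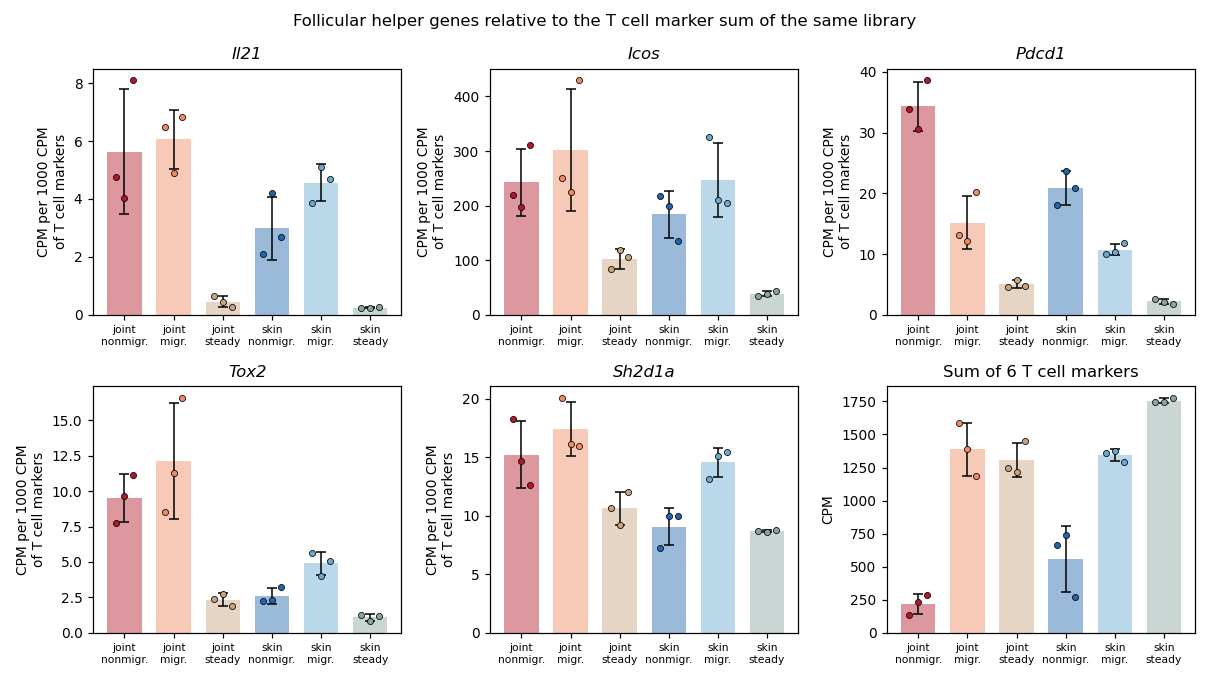
CPM of 5 follicular helper genes per 1000 CPM of summed T cell markers of the same library (vertical axes, linear from 0), and the marker sum itself (last panel). Points are libraries, bars are means of 3 and whiskers are SDs. Il21, Icos and Pdcd1 are lowest in both steady-state groups, and Pdcd1 has its highest means in the nonmigrated groups.

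Between the 2 steady-state groups, Gcsam was 2.21-fold higher in joint steady libraries (log2 1.15 ± 0.31, edgeR adjusted p = 0.0391), the one member called, where 3.23% of all genes were called higher, 0.655% lower and 3.89% in either direction. The call did not hold when any single library of the 6 was left out (log2 0.91 to 1.33, edgeR adjusted p = 0.0580 to 0.194). Icos (1.95-fold, edgeR adjusted p = 0.0161) and Pdcd1 (1.67-fold, edgeR adjusted p = 0.0149) were higher in joint steady libraries below the fold threshold, which Icos passed without joint steady replicate 1 or skin steady replicate 3 (1.08 to 1.11). All 4 neutrophil markers (median log2 difference 5.94) and 2 of 4 macrophage or monocyte markers (1.73) were called higher in joint steady libraries. Called lower was 1 of 4 migratory dendritic cell markers (-0.39), and 0 of 6 T cell and 0 of 6 B cell markers were called. Titles carry PBS and KG for joint steady and Naive for skin steady libraries, so site and treatment cannot be told apart. The part of these differences in the member values was not tested.

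The ligands, receptors and effectors that work with the members were read from a fixed list of 24 partners. In the joint 8 of 24 were higher and 1 lower in migrated cells, with a median log2 change of 0.39 against 0.02 over all genes. These 9 of 24 lie near the 34.3% of all genes called in either direction. The called partners included Icosl, the ligand of ICOS (log2 2.32 ± 0.20, edgeR adjusted p = 2.96e-06), and the SLAM family receptors Slamf1 (2.41) and Slamf6 (1.98), while the SLAM family receptor Cd84 fell by 1.90. In the skin 6 were higher and 3 lower, the median being 0.32, and the 9 of 24 again lie near the background of 35.4%. Icosl (2.19), Slamf6 (2.00) and Il21r, the IL-21 receptor (1.70), were among those that rose. Cd274, which encodes PD-L1, fell by 2.64 on the log2 scale (SE 0.37, edgeR adjusted p = 1.03e-04), from a mean of 2787 to 449.9 CPM. Against steady state, 7 partners were higher and 1 lower at the joint and 8 were higher at the skin, where 24.2% and 36.5% of all genes were called. The costimulatory ligand Cd80 rose by 4.01 and 5.58, and Prdm1, whose product Blimp-1 and BCL6 repress each other's genes, rose by 2.65 and 3.33. Migratory dendritic cell markers were called higher in the same comparisons (3 of 4, median 8.78, at the joint and 4 of 4, 8.63, at the skin), as were plasma cell markers (2 of 3, 1.29, and 3 of 3, 1.27), and their part was not tested.

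Of 21 tested genes of a follicular helper list of 22, 13 rose and 2 fell in joint migrated against joint nonmigrated cells, with a median log2 change of 2.06, where 16.0% of all genes were called higher and 18.4% lower. The 6 T cell markers had a median of 2.90 in the same comparison. Izumo1r, which encodes the folate receptor FR4, rose by 4.16 ± 0.32 (edgeR adjusted p = 1.60e-06) and Tcf7, an early T cell transcription factor, by 4.07 ± 0.36 (edgeR adjusted p = 4.09e-06), whereas the ATP receptor P2rx7 fell by 2.92. In the skin 10 rose and 3 fell with a median of 1.01, where 15.7% and 19.7% of all genes did and the T cell markers had a median of 1.36. Among them were Izumo1r (3.14) and Tcf7 (3.03) upward, and Il4 (-3.48) and P2rx7 (-3.42) downward. Between migrated groups edgeR called 0 of the 21, where it called 1.14% of all genes. An unadjusted p under 0.05 was found for 5 of the 21, all higher in the joint, and for 2770 of all 16777 genes. The DESeq2 Wald test called 1 of the 21, where it called 2.77% of all genes. Against steady state, 6 rose and 4 fell at the joint (backgrounds 16.9% and 7.31%) and 8 rose and 4 fell at the skin (21.5% and 15.0%). The inhibitory receptor Tigit (2.61 and 3.18) and the transcription factor Maf (2.03 and 2.35) rose at both sites, while Cxcr5, the chemokine receptor that directs cells to the follicle and is also carried by B cells, fell by 1.71 and 2.17, and Btla by 1.78 and 2.58.

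Of 23 tested genes of a germinal centre B cell list of 24, 13 rose and 3 fell in the joint (median 1.08) and 12 rose and 6 fell in the skin (median 1.15), against backgrounds of 16.0% higher and 18.4% lower in the joint and 15.7% and 19.7% in the skin. The 6 B cell markers had medians of 2.79 and 5.24 in the same comparisons, above the list's medians, and their part in the list's counts was not tested. Nuggc, a germinal centre GTPase gene, passed the filter on low counts through the migrated groups alone. Its values are therefore a description, although it is counted among the genes that rose at both sites. In the joint it had 122, 66 and 144 counts in migrated and 3, 6 and 7 in nonmigrated libraries, a fitted log2 difference of 3.84. In the skin it was at a mean of 1.35 CPM in migrated libraries and at or under the floor, with 0, 0 and 2 counts, in nonmigrated ones. Plxnb2, Lmo2 and S1pr2 fell in the joint, the first by 3.94, and Cd38, Plxnb2 and Lmo2 in the skin. Among migrated cells the B cell genes Cd22 (2.02), Fcrla (1.85) and Bach2 (1.24) were higher from the joint, as were the B cell markers. Against steady state 4 rose and 6 fell at the joint (16.9% and 7.31% of all genes) and 5 rose and 8 fell at the skin (21.5% and 15.0%), with Cd22 falling by 2.03 and 3.70 where all 6 B cell markers were called lower. Basp1, which rose by 5.25 and 6.68, and S1pr2, which rose by 1.48 and 2.11, went the other way at both sites.

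The genes most like each member over the 18 libraries were ranked by Pearson r of log2(CPM + 1) among 18156 genes, as a description without a test. Sh2d1a was most like Tyro3 (r = 0.991), Nipal3 (0.983) and Fyn (0.981), and Fas most like Ergic1 (0.989), Ece1 (0.978) and Plekhm2 (0.978). Icos followed Ccr4 (0.980), Ankrd6 (0.980) and Cchcr1 (0.945). Il21 followed Pvrig (0.970), Rad21 (0.965) and Klrg1 (0.961), and those like Pdcd1 included Il17re (0.963) and Nebl (0.952). Tox2 was most like Ighe (0.95), Atp8a2 (0.947) and Eaf2 (0.942), and Bcl6 most like Syk (0.946), Irak3 (0.925) and Gm12867 (0.923). Gcsam followed Rbp4 (0.917), Dkk3 (0.915) and Asb2 (0.893), and the rare Mef2b followed Pom121 (0.884), Olig3 (0.872) and Gm44510 (0.865). Among the members themselves, Icos and Tox2 (0.867) came after Il21 and Pdcd1, and Bcl6 ran opposite to Sh2d1a (-0.787) and Tox2 (-0.645).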

How the data were processed

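CD45+ cells, sorted as Kaede red+ in the inflamed groups, were sequenced as paired reads of 100 bases in 18 libraries. Whether this sort also applied to the steady-state groups is not given on their own labels. The authors used Trim Galore, TopHat2 (mm10, Ensembl 87 gene models) and HTSeq at default settings, and deposited raw counts per gene. Per the labels' processing notes, FastQC, Cufflinks and DESeq2 were also used. The 5 HTSeq summary lines, 11.3% to 15.1% of reads, were left out. Symbols and exon lengths came from GENCODE M21.

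Counts were tested with edgeR 4.0.16 (R 4.3.3, quasi-likelihood F test, TMM, filterByExpr with a minimum count of 10). Package limma 3.58.1 was loaded with edgeR. The 12 inflamed libraries were fitted together, as were the 12 node libraries, with group as the only factor. P values were adjusted over all genes tested by the Benjamini-Hochberg method, and calls needed an adjusted p under 0.05 with a log2 fold change beyond 1 in either direction, the threshold of the study's methods. SEs were obtained from F as the size of the log2 change over the root of F. CPM was scaled by TMM over all 18 libraries, and RPKM is CPM per kilobase of merged exons. The floor was 3 counts per library. Floors and count ratios cover counting error only. The script was tested on simulated data.

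Libraries of a group are pools of different mice at the inflamed sites. The labels do not say this for the steady-state groups, whose p-values may measure technical spread. No 2 libraries were identical. The members and lists were chosen with earlier results of these data known. Named genes are all members, the cell type markers, up to 3 called genes per list, comparison and direction with the largest change and replicates that do not overlap, and the 3 genes most like each member. A few genes that this rule covers are not reported here. Alternatives were an adjusted p under 0.001, DESeq2 size factors, the DESeq2 1.42.0 Wald test, no filter, a replicate block, other sets of libraries in the fit, leaving out each library, and a pseudocount of 0.1 for the correlations. Figures used Python 3.11.15 and matplotlib 3.10.9.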

Additional observations from a re-analysis of the deposited data

Results flagged for a closer look

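The change with migration differed between joint and skin for Gcsam, by 4.31 on the log2 scale (edgeR adjusted p = 6.67e-04, interaction of site and migration), a change of 1.54 in the joint and -2.77 in the skin. Among the germinal centre B cell list, it also differed for Basp1 by 2.46 (1.08 in the joint, -1.38 in the skin), for Pou2af1 by -3.36 (2.04 and 5.40) and for Id3 by -2.44 (-0.60 and 1.84). Among the follicular helper list it differed for Cd200 by 3.06 (3.91 and 0.85), for Il4 by 3.61 (0.13 and -3.48) and for Irf4 by -1.24 (1.06 and 2.30). For Sostdc1 the fitted difference was 6.97, but joint nonmigrated cells averaged 0.0293 CPM, under the floor, so this value depends on the fit's prior count and is no bound. Among the partners it differed for Cd274, the PD-L1 gene, by 2.88 (0.24 and -2.64), for Pdcd1lg2, the PD-L2 gene, by 1.71 (0.72 and -0.98) and for Cd244a by 1.32 (-0.96 and -2.28). These 11 genes had edgeR adjusted p of 6.67e-04 to 0.0471. No explanation was tested.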

How the results depend on the processing

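The number of members called kept its value under DESeq2 size factors in all 8 comparisons, and the direction of every member change was the same under every alternative other than leaving out a library. At an adjusted p under 0.001, members called numbered 4 in joint and 3 in skin migrated against nonmigrated cells and 0 in joint against skin migrated cells and in joint against skin steady libraries. For joint against skin migrated cells the number was 2 with the DESeq2 Wald test, with no filter, with all 18 libraries in the fit and with only the groups compared, Tox2 being added each time (adjusted p = 0.00657 to 0.0328). Leaving out 1 library gave 6 to 7 members in joint and 4 to 7 in skin migrated against nonmigrated cells, 1 to 3 in joint against skin nonmigrated, 0 to 2 in joint against skin migrated, 1 to 4 in the interaction, 5 to 6 against joint steady, 5 against skin steady and 0 to 1 between steady groups. The joint number was 6 without any of the 6 joint libraries, where Mef2b was not tested. The 7 in the skin, without skin migrated replicate 3, counts Bcl6 and also Mef2b (edgeR adjusted p = 0.0497), which is at the floor on both sides. Without 1 library or another in turn, differences near 0 changed sign for Pdcd1 in the skin (-0.0317 to 0.7129), Il21 between nonmigrated groups (-1.1268 to 0.3113), Fas (-0.2632 to 0.0277) and Bcl6 (-0.0628 to 0.1781, with -7e-04 and -0.0357 the other reversals) between migrated groups, Mef2b against joint steady (-0.0597 to 0.1992) and Fas between steady groups (-0.1005 to 0.0319). None of these was called.

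Over all genes, calls at an adjusted p under 0.001 numbered 3586, 3508, 511, 0 and 20 for the 5 inflamed comparisons (joint, skin, nonmigrated, migrated, interaction), 2714 against joint steady and 246 between steady groups, where the main counts were 5757, 5940, 2400, 191, 1029, 4143 and 665. Calls between migrated groups moved to 465 with DESeq2, 327 with no filter, 407 with all 18 libraries, 328 without skin nonmigrated replicate 3, and 58 to 63 without any of joint migrated replicates 1 to 3 or skin migrated replicates 1 and 3. Interaction calls moved to 1729 with DESeq2, 1664 with all 18 libraries, 2610 without skin nonmigrated replicate 3, and 582 to 668 without joint nonmigrated replicate 2, joint migrated replicate 2, skin nonmigrated replicate 1 or 2 or skin migrated replicate 1. Calls between nonmigrated groups moved to 3720 without skin nonmigrated replicate 3. The cause was not tested.

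Replicate numbers were not taken as pairs, since the labels give no shared batch. Same-numbered deviations correlated at 0.021 to 0.254 in joint and 0.0735 to 0.173 in skin migrated against nonmigrated cells. The main fits may therefore leave out a pairing of tissue and node. In the skin every library correlated best with its own number. So did every joint library other than joint nonmigrated replicate 1, which had 0.0385 with joint migrated replicate 2 and 0.021 with its own number. With a replicate block within each site, 0 members were called between migrated groups and 0 between steady groups (Gcsam log2 1.61 and 1.18, edgeR adjusted p = 0.0526 and 0.0723), and the block changed no other member's call. With a pseudocount of 0.1, the gene most like Il21, Icos and Tox2 became Farp1 (0.974), Ankrd6 (0.986) and Atp8a2 (0.940). Depth limits Mef2b most: it was at or under 3 counts in all 9 joint nonmigrated, skin nonmigrated and skin migrated libraries.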
